A study of Mus with 12 samples.

Results

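Complement is a set of blood and tissue proteins that mark microbes, immune complexes and dying cells for removal, and 9 of its genes were followed here in the mouse uterus during pregnancy. They were C1qa, C1qb, C1qc, C4b, C2, Cfb, Cfd, C3 and Cd55, taken by name from the rows of both deposited gene tables that carry an Ensembl transcript, out of 58273 gene names on such rows. The 9 genes stood in 8 rows of each table, since C2 and Cfb shared a row, and all 8 rows passed the filter of at least 0.1 FPKM (fragments scaled for transcript length and library size) on average. RNA-seq had been run on the whole uterus of 12 pregnant mice of the outbred ICR strain, 8 weeks old and given no treatment in the labels. There were 4 groups of 3 mice, with 1 library per mouse, collected on embryonic day E0.5, E4.5, E15.5 or E18.5. E0.5 and E4.5 formed the implantation stage, whose table of 87235 rows gave counts and FPKM. E15.5 and E18.5 formed the labor stage, whose table of 40787 rows gave FPKM only. The tables had been assembled and normalized separately, so levels were tested within a table and never across.

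The cascade can be started by C1q, a protein of A, B and C chains that binds antibody complexes and cell debris, after which C4 and C2 are cut to form an enzyme that splits C3. A second route needs no antibody and relies on factor B (Cfb), which factor D (Cfd) cuts. Both routes meet at C3, the most abundant complement protein of plasma, and CD55 on the cell surface speeds the decay of the enzymes that split it. Macrophages are a main source of C1q, fat cells release factor D in large amounts, and in rodents the uterine epithelium makes C3 under the control of estrogen.

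Total counts lay between 58020989 and 70906881 per library at the implantation stage, and the table of the labor stage gives no counts from which the depth of a library could be read. The 10 listed genes of uterine tissue and smooth muscle, among them Esr1, Pgr and Hoxa11, were all at 1 FPKM or more on average in both tables, as for a uterus. The E4.5 replicate 3 library stood apart. Its Spearman correlations with the other E4.5 libraries over 15947 rows were 0.725 and 0.711, against 0.885 to 0.910 for the other pairs of the same day. Its 10 ovary markers summed to 1376 FPKM, against 4.29 to 6.49 in the other 5 libraries, and its uterine and smooth muscle markers summed to 194 FPKM, against 653 to 1118. Several results are therefore also given without it. Among the labor libraries, E15.5 replicate 1 had the lowest correlation with a library of its day, 0.872 over 14254 rows.

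At the implantation stage the question was how the uterus of E0.5, just after mating, differs from that of E4.5, when embryos attach. C3, the C2 and Cfb row and C4b were higher at E0.5, by 16.1-fold, 11.8-fold and 3.61-fold, while the C1q chains, Cfd and Cd55 did not meet the criterion of the study, which asks for a log2 fold change of 1 or more in size and for p below 0.05 without adjustment. So 3 of 8 complement rows met it, all higher at E0.5, where 6.37% of the 59732 tested rows met it in that direction and 12.2% in either. The adjusted p was under 0.05 for 2 of 8, C3 and C4b, against 1.22% of all rows by the quasi-likelihood test of edgeR with Benjamini-Hochberg adjustment. Standard errors are written SE. The groups did not overlap for 5 of 8 rows, all higher at E0.5, against 12.8% of all rows. The median log2 fold change was 1.43 over the 8 rows and -0.01 over all tested rows. In this bulk RNA, fewer cells of a type and less RNA per cell cannot be told apart.

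**Figure D1:**
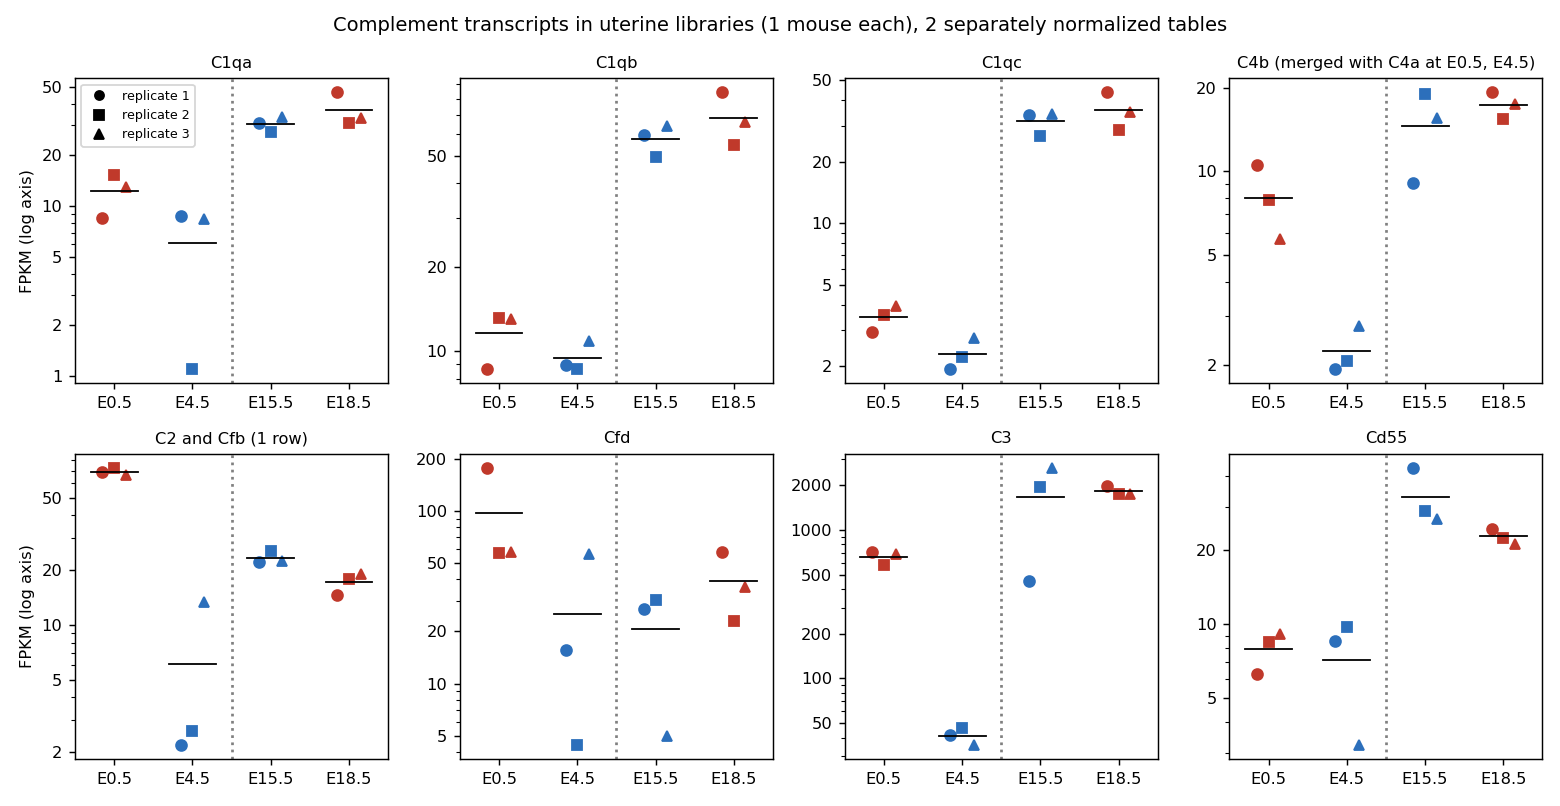
FPKM on a log axis for the 8 complement rows in each of the 12 libraries, with days on the horizontal axis, a marker shape per replicate, red for E0.5 and E18.5, blue for E4.5 and E15.5, and a line at the mean of 3. The dotted line parts the separately normalized tables. C3 lies between 578 and 707 FPKM at E0.5 and between 35.6 and 46.0 at E4.5, and its lowest value of the labor stage is the 451.3 FPKM of E15.5 replicate 1.

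The recognition chains of the classical pathway lie side by side on the minus strand of chromosome 4 in coordinates that match GRCm38, with C1qb from 136880129 to 136886187, C1qc from 136889804 to 136893065 and C1qa from 136895917 to 136898803. C1qa, the A chain, had 8.53, 15.3 and 13.0 FPKM at E0.5, against 8.80, 1.10 and 8.42 FPKM at E4.5. Its groups overlapped, and E4.5 replicate 2 was far below every other library. It differed by 1.0 on the log2 scale with an SE of 0.71 (adjusted p = 0.506, edgeR with Benjamini-Hochberg adjustment), and by 0.51 without E4.5 replicate 2.

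The low C1qa value was not shared by the other chains. C1qb had 8.63, 13.2 and 13.0 FPKM at E0.5, against 8.92, 8.69 and 10.9 FPKM at E4.5. These values overlapped, with a log2 fold change of 0.31 (SE 0.24, adjusted p = 0.546, edgeR with Benjamini-Hochberg adjustment). The FPKM ratio of C1qb to C1qa was 0.864 to 1.29 in 5 libraries and 7.89 in E4.5 replicate 2, where C1qa had 99 counts, C1qb 772 and C1qc 352. C1qc had 2.93, 3.56 and 3.93 FPKM at E0.5, against 1.93, 2.23 and 2.74 FPKM at E4.5. Every E0.5 library was above every E4.5 library, but the log2 fold change was only 0.61 (SE 0.23, unadjusted p = 0.0362, adjusted p = 0.257, edgeR with Benjamini-Hochberg adjustment).

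Macrophage genes were listed beside these chains. Of 12 listed macrophage markers, 7 were higher at E0.5 by the criterion and none was lower, and 8 of 12 were at 1 FPKM or more on average. Their summed FPKM was 119.9 to 143 at E0.5 and 54.7 to 72.7 at E4.5, without overlap. Set against the mean log2 level of these markers in the same library, C1qb was 1.24 ± 0.25 (SD, n = 3) higher at E0.5 and 1.96 ± 0.18 (SD, n = 3) higher at E4.5 on the log2(FPKM + 0.1) scale. The gap of C1qb was smaller in every E0.5 library than in any E4.5 library (exact permutation test, two-sided p = 0.1, the smallest that 3 against 3 allows). For the mean of the C1q chains the gaps overlapped, at 0.70 ± 0.23 (SD, n = 3) and 0.93 ± 0.62 (SD, n = 3), with the lowest in E4.5 replicate 2, at 0.22 (exact permutation test, two-sided p = 0.6). The part of macrophage RNA in the C1q values was not tested.

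**Figure D2:**
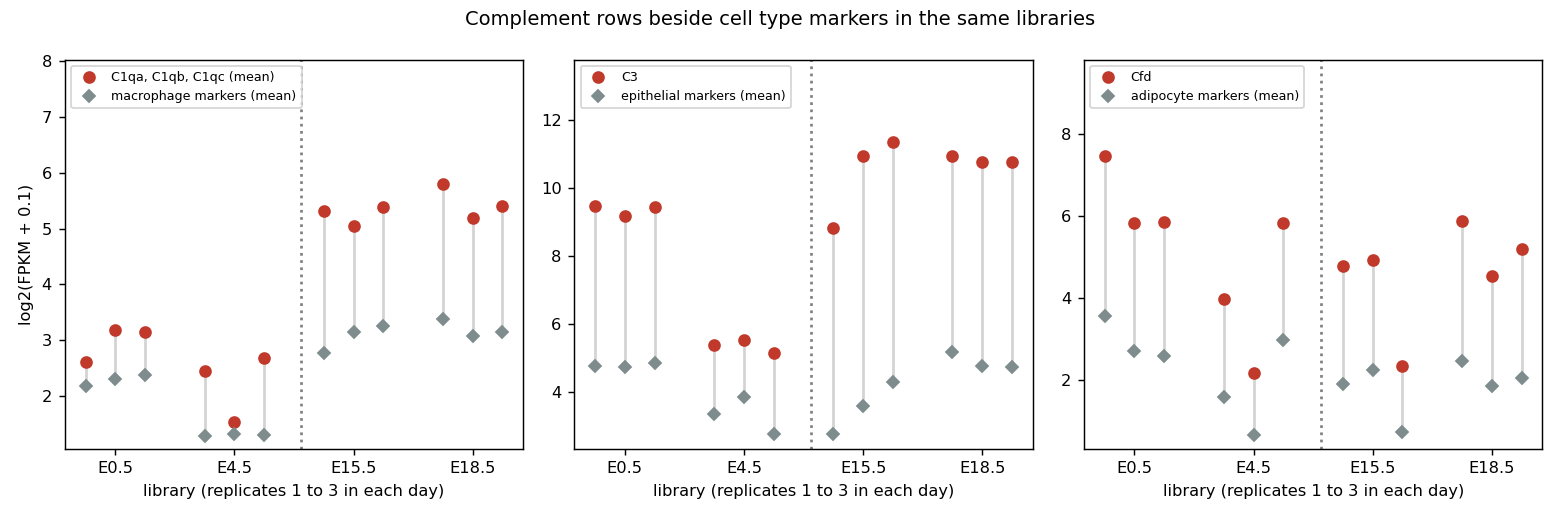
Levels on the log2(FPKM + 0.1) scale per library, with complement rows as red circles and the mean of a marker list as grey diamonds, joined within a library. The panels show C1q beside 12 macrophage markers, C3 beside 10 epithelial markers and Cfd beside 10 adipocyte markers. The gap between C3 and the epithelial mean is 4.58 on average at E0.5 and 2.04 at E4.5.

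C4 and C2 carry the signal of C1q to C3. The C4b row spans 34728380 to 34823454 on the minus strand of chromosome 17 and is merged with the near-identical copy C4a in the implantation table, so reads of the copies cannot be split there. The merged row also overlaps the RefSeq genes Stk19-ps1, Skiv2l-ps1, Tnxa and Cyp21a1. It had 10.6, 7.87 and 5.68 FPKM at E0.5, against 1.92, 2.06 and 2.75 FPKM at E4.5. Even the lowest E0.5 library was above the highest E4.5 library. C4b rose at E0.5 by 1.85 on the log2 scale (SE 0.26, adjusted p = 0.0347, edgeR with Benjamini-Hochberg adjustment). The adjusted p was over 0.05 when any library other than E4.5 replicate 3 was left out, at most 0.158, while the criterion was met each time.

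The C2 and Cfb row, from 34850693 to 34898265 on the minus strand of chromosome 17, joins the neighbours C2 and Cfb with the read-through gene Gm20547, and it also overlaps the RefSeq genes Nelfe and Zbtb12. C2 serves the classical route and factor B the alternative route, and the row does not show how much came from each. It had 69.1, 72.8 and 66.5 FPKM at E0.5, against 2.19, 2.62 and 13.4 FPKM at E4.5. The E0.5 libraries lay close together, and among the E4.5 libraries replicate 3 was the highest. The row differed by 3.56 on the log2 scale (SE 0.72, adjusted p = 0.0742, edgeR with Benjamini-Hochberg adjustment). Without E4.5 replicate 3, the library with ovary markers, it was 4.84 (adjusted p = 0.00032, edgeR with Benjamini-Hochberg adjustment). In the other 5 fits that left out a library it lay between 3.15 and 3.56, with adjusted p from 0.154 to 0.235 (edgeR, Benjamini-Hochberg).

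Cfd, from 79890853 to 79892655 on the plus strand of chromosome 10, encodes the protease that cuts factor B. It had 177, 56.8 and 57.7 FPKM at E0.5, against 15.6, 4.41 and 56.0 FPKM at E4.5. The groups parted by the narrow step from 56.0 to 56.8 FPKM, and the spread within each day was wide. The log2 fold change of 1.96 had an SE of 0.91 (unadjusted p = 0.0684, adjusted p = 0.327, edgeR with Benjamini-Hochberg adjustment). Without E4.5 replicate 3 it was 3.22 (unadjusted p = 0.00397, adjusted p = 0.0581, edgeR with Benjamini-Hochberg adjustment), which meets the criterion, and without E0.5 replicate 1 it was 1.21.

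Adipocyte markers varied between the same libraries. The 10 markers, Adipoq and Plin1 among them, summed to 236, 106 and 95.3 FPKM at E0.5 and to 44.0, 25.8 and 134 FPKM at E4.5, and 9 of 10 were at 1 FPKM or more on average. By the criterion 2 of 10 were higher at E0.5, with a median log2 fold change of 1.22, and without E4.5 replicate 3 it was 9 of 10, with a median of 2.07. The library with the most Cfd on each day was also the one with the highest sum. Cfd lay above the mean log2 level of these markers by 3.44 ± 0.41 (SD, n = 3) at E0.5 and by 2.25 ± 0.67 (SD, n = 3) at E4.5, without overlap (exact permutation test, two-sided p = 0.1, the smallest possible). The part of fat around the uterus in the Cfd values was not tested.

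C3, where the routes meet, had the highest mean FPKM of the 8 rows on both days, although Cfd was above it in E4.5 replicate 3. The row spans 57203970 to 57228136 on the minus strand of chromosome 17 and covers the RefSeq gene C3. It had 707, 578 and 695 FPKM at E0.5, against 41.7, 46.0 and 35.6 FPKM at E4.5. Every E0.5 library was far above every E4.5 library. The means were 660 ± 71.5 (SD, n = 3) and 41.1 ± 5.25 FPKM (SD, n = 3). By mean FPKM these were places 22 and 276 among the 53158 rows of the table with an Ensembl transcript. C3 rose by 4.01 on the log2 scale (SE 0.23, adjusted p = 0.00508, edgeR with Benjamini-Hochberg adjustment), and it lay between 3.90 and 4.09 when each library was left out. Among these 6 fits, the adjusted p went over 0.05 only without E0.5 replicate 2, at 0.0554. C3 held 0.211% to 0.268% of the summed FPKM at E0.5 and 0.0130% to 0.0166% at E4.5.

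Some epithelial markers were also higher at E0.5. Of 10 listed, 6 met the criterion, all higher at E0.5, and their median log2 fold change was 1.23. Without E4.5 replicate 3, 4 of 10 met it, with a median of 0.89. Among the markers, Elf3, a transcription factor of epithelia, rose by 4.16 on the log2 scale, Krt19 by 2.23 and Krt8 by 1.96. Cldn7 at 1.32 and Cdh1 at 1.14 met the criterion but missed the adjusted p (edgeR, Benjamini-Hochberg), while Epcam at 0.98, Foxa2 at 0.44, Krt18 at 0.35 and Cldn3 at -0.03 did not meet the criterion. Their summed FPKM was 385 to 433 at E0.5 and 186, 255 and 107 at E4.5, the lowest in replicate 3. C3 exceeded the mean log2 level of these markers by 4.58 ± 0.14 (SD, n = 3) at E0.5 and by 2.04 ± 0.36 (SD, n = 3) at E4.5, without overlap (exact permutation test, two-sided p = 0.1, the smallest possible). This holds against the mean of the list, and not against Elf3, whose fold change of 17.9 was above the 16.1 of C3. The part of epithelial RNA in the C3 values was not tested. Of the 10 liver markers, another organ that makes C3, Alb, Apoa2 and Fgb were at 0 in all 6 libraries, and the sum of the list was at most 7.00 FPKM. Serpina1a, which encodes a secreted protease inhibitor, was the only one above 0 at E0.5, with 7.00, 3.17 and 4.42 FPKM against 0.201, 0.921 and 0.843 FPKM at E4.5. Like C3 it was higher at E0.5 by the criterion, at 2.92 on the log2 scale (adjusted p = 0.0709, edgeR with Benjamini-Hochberg adjustment). Fga, Fgg and Ttr were lower by the criterion, at 0 in all 3 libraries of E0.5 and at most 3.63 FPKM at E4.5. The part of liver RNA in the C3 values was not tested.

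Cd55, from 130397393 to 130462744 on the minus strand of chromosome 1, encodes the surface protein that limits C3 cleavage, and its row overlaps its paralog Cd55b, so reads may be shared. It had 6.30, 8.49 and 9.13 FPKM at E0.5, against 8.55, 9.74 and 3.23 FPKM at E4.5. The groups overlapped, and the lowest value was that of E4.5 replicate 3. The log2 fold change was 0.15 (SE 0.42, adjusted p = 0.882, edgeR with Benjamini-Hochberg adjustment) and -0.21 without that library.

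The rest of the pathway was read from 4 lists of 48 other complement genes. Of these, C4a shared the C4b row and was counted there, and the others stood in 44 rows, of which 31 were tested. By the criterion 4 were higher at E0.5 and 1 was lower, so that 5 of 31 met it, where 12.2% of all rows did in either direction, and 2 were higher by the adjusted p (edgeR, Benjamini-Hochberg). Their median log2 fold change was 0.25, against -0.01 over all rows. Without E4.5 replicate 3, 6 were higher and 2 lower by the criterion, and the same numbers by the adjusted p. When any other library was left out, 0 to 2 passed the adjusted p.

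Of 10 tested regulators, 2 met the criterion, Cfi and C4bp, both higher at E0.5. Cfi, the protease that inactivates the C3 and C4 fragments, had 14.2, 18.2 and 20.5 FPKM at E0.5, against 1.53, 1.59 and 0.970 FPKM at E4.5. The days did not overlap, and Cfi rose by 3.69 on the log2 scale (SE 0.30, adjusted p = 0.0103, edgeR with Benjamini-Hochberg adjustment). C4bp, a cofactor of factor I, averaged 0.432 FPKM over the stage. With a library left out, the adjusted p of Cfi was between 0.0014 and 0.0902, under 0.05 in 2 of 6 fits.

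Of 8 tested receptors, 1 was higher and 1 lower by the criterion. Itgam, the alpha chain of complement receptor 3 and also a marker of myeloid cells, stood in a row merged with Gm49368 and Gm45700. It had 5.37, 7.88 and 9.53 FPKM at E0.5, against 0.666, 0.569 and 0.763 FPKM at E4.5, without overlap. The row rose by 3.52 on the log2 scale (SE 0.28, adjusted p = 0.0103, edgeR with Benjamini-Hochberg adjustment), and the adjusted p stayed under 0.05 in 3 of 6 fits that left out a library. Its partner chain Itgb2 had a log2 fold change of 0.13 (adjusted p = 0.912, edgeR with Benjamini-Hochberg adjustment). Of 9 neutrophil markers, which summed to at most 3.25 FPKM in these 6 libraries, Ly6g and Csf3r were also higher at E0.5 by the criterion. Their log2 fold changes were 3.05 and 1.88 (adjusted p = 0.177 and 0.261, edgeR with Benjamini-Hochberg adjustment), while S100a9 and Retnlg were at 0 in all 6 libraries. The other 3 of the 5 tested neutrophil markers, Camp, Mmp8 and S100a8, were lower at E0.5, none by the criterion. They lay at -2.19, -2.14 and -1.997 on the log2 scale. The part of neutrophil RNA in the Itgam values was not tested. C1qbp, a mainly mitochondrial protein that binds C1q, had 3.81, 2.76 and 3.04 FPKM at E0.5, against 7.20, 6.66 and 6.16 FPKM at E4.5. It was lower in every E0.5 library, at -1.05 on the log2 scale (SE 0.20, adjusted p = 0.0617, edgeR with Benjamini-Hochberg adjustment). It met the criterion in 4 of 6 fits that left out a library, and missed it, at -0.96, without E0.5 replicate 2 and without E4.5 replicate 1.

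Of 8 tested genes of the classical and lectin pathway, only Fcna met the criterion. Fcna encodes ficolin A, a lectin made by macrophages that starts the lectin route. It had 2.71, 1.11 and 1.56 FPKM at E0.5, against 0.412, 0.311 and 0.389 FPKM at E4.5, without overlap. Its log2 fold change was 2.26 (SE 0.44, adjusted p = 0.0662, edgeR with Benjamini-Hochberg adjustment). None of the 5 tested genes of the alternative and terminal pathway met the criterion, and the terminal components C8a, C8b and C9 were below the filter.

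**Figure D3:**
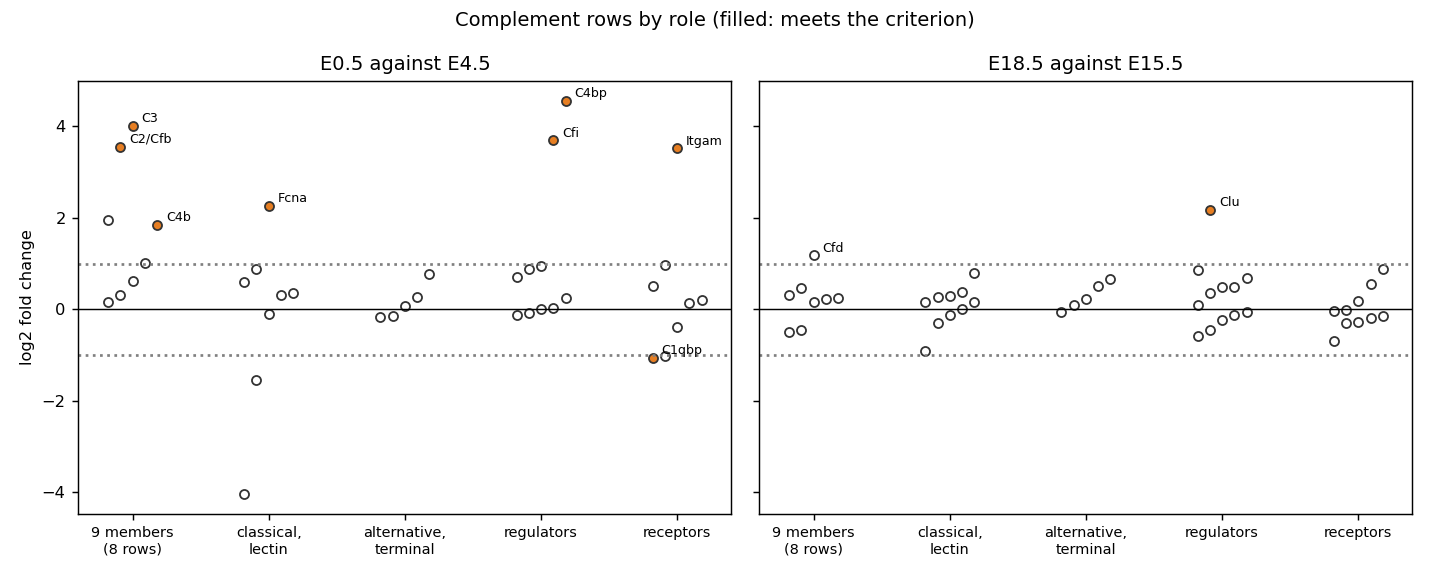
Log2 fold changes of the 8 rows of the 9 followed genes and of the other tested complement rows by role, for E0.5 relative to E4.5 on the left and E18.5 relative to E15.5 on the right. Each point is a row, filled points meet the criterion, and dotted lines mark log2 fold changes of 1 and -1. On the left the 3 filled points of the followed genes lie at 4.01, 3.56 and 1.85, and on the right none is filled.

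At the labor stage the question was how the uterus near term, at E18.5, differs from that of E15.5. None of the 8 complement rows met the criterion, which 6.05% of the 30928 tested rows did, and none passed the adjusted p of limma, which 0.0259% did. The unadjusted p was under 0.05 for 2 of 8 rows, the C2 and Cfb row and Cd55, both lower at E18.5, where 12.2% of all rows were under it in either direction and 5.51% on the lower side. These were also the 2 rows whose groups did not overlap, against 8.96% of all rows in that direction. The unadjusted p went over 0.05 for the C2 and Cfb row without E15.5 replicate 2 or E18.5 replicate 1, and for Cd55 without any of the E18.5 libraries. The median log2 fold change was 0.24 over the 8 rows and 0.02 over all rows. No count test could be run, since this table holds no counts.

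For the C1q chains the days overlapped. C1qa had 46.6, 30.9 and 32.8 FPKM at E18.5, against 30.6, 27.2 and 33.5 FPKM at E15.5. C1qb had 84.4, 54.7 and 66.3 FPKM at E18.5, against 59.4, 49.5 and 63.8 FPKM at E15.5. C1qc had 43.7, 28.7 and 34.9 FPKM at E18.5, against 34.0, 26.7 and 34.3 FPKM at E15.5. In all 3 genes E18.5 replicate 1 was the highest library and E15.5 replicate 2 the lowest. The log2 fold changes were 0.25 for C1qa, 0.24 for C1qb and 0.16 for C1qc, with standard errors of 0.19, 0.20 and 0.19. None of the 12 macrophage markers met the criterion, and their sum was 279.8 to 378 FPKM at E18.5 and 293 to 352 FPKM at E15.5. The ratio of C1qb to C1qa was 1.77 to 2.02 in all 6 libraries.

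C4b had 19.3, 15.54 and 17.5 FPKM at E18.5, against 9.09, 19.1 and 15.6 FPKM at E15.5. E15.5 replicate 1 was low and the rest overlapped, with a log2 fold change of 0.32 (SE 0.27, adjusted p = 0.667, limma with Benjamini-Hochberg adjustment). In this table C4a has a row of its own. The C2 and Cfb row had 14.7, 17.8 and 19.0 FPKM at E18.5, against 22.1, 25.3 and 22.3 FPKM at E15.5. All E18.5 libraries were below all E15.5 libraries, but the difference was small, a log2 fold change of -0.44 (SE 0.14, unadjusted p = 0.0165, adjusted p = 0.287, limma with Benjamini-Hochberg adjustment).

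Cfd had 57.9, 23.1 and 36.1 FPKM at E18.5, against 27.1, 30.3 and 4.94 FPKM at E15.5. The days overlapped, and E15.5 replicate 3 was the lowest for Cfd and also for the sum of the adipocyte markers, 29.4 FPKM against 54.3 to 86.3 in the other 5 libraries. Its log2 fold change of 1.18 had an SE of 0.71 (adjusted p = 0.546, limma with Benjamini-Hochberg adjustment) and was 0.35 without E15.5 replicate 3.

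C3 stood among the most abundant rows on both days, at places 23 and 27 among the 33589 rows of the table with an Ensembl transcript. It had 1976, 1739.7 and 1750.0 FPKM at E18.5, against 451.3, 1962 and 2623 FPKM at E15.5. The E18.5 libraries lay close together, while E15.5 held both the lowest and the highest value. The log2 fold change was 0.46 (SE 0.70, adjusted p = 0.819, limma with Benjamini-Hochberg adjustment), and -0.32 without E15.5 replicate 1, so no direction can be given.

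Cell type markers differed between these libraries as well. The 10 epithelial markers summed to 662 to 940.2 FPKM at E18.5 and to 211, 325 and 460 FPKM at E15.5, with 5 of 10 higher at E18.5 by the criterion. Their lowest library was E15.5 replicate 1, which also had the least C3. C3 exceeded their mean log2 level by 5.94 ± 0.14 (SD, n = 3) at E18.5 and by 6.82 ± 0.68 (SD, n = 3) at E15.5, parted only by the step from 6.04 in the highest E18.5 library to 6.05 in the lowest E15.5 library (exact permutation test, two-sided p = 0.1, the smallest possible). The liver markers summed to 52.9 to 314 FPKM at E18.5 and to 5.66, 53.3 and 440.3 FPKM at E15.5, and those of yolk sac and placenta to 228 to 680 FPKM and to 23.3, 149.9 and 839.7 FPKM. On these lists too E15.5 replicate 1 was the lowest library and E15.5 replicate 3 the highest. The part of these tissues in the C3 values was not tested.

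Cd55 had 24.5, 22.5 and 21.3 FPKM at E18.5, against 43.2, 28.8 and 26.8 FPKM at E15.5. Every E18.5 library was below every E15.5 library, with a log2 fold change of -0.50 (SE 0.20, unadjusted p = 0.0398, adjusted p = 0.384, limma with Benjamini-Hochberg adjustment). The step between the groups, from 24.5 to 26.8 FPKM, was small beside the spread at E15.5.

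The 48 other complement genes stood in 43 rows of this table, of which 37 were tested. Clu alone met the criterion (3 rows higher and 1 lower did so without E15.5 replicate 3), and no row passed the adjusted p of limma, with 8 rows at an unadjusted p under 0.05. Clu encodes clusterin, a secreted chaperone that blocks the terminal complex. It had 98.9, 42.1 and 31.2 FPKM at E18.5, against 8.27, 10.3 and 16.2 FPKM at E15.5. All E18.5 libraries were higher, with a log2 fold change of 2.18 (SE 0.45, adjusted p = 0.158, limma with Benjamini-Hochberg adjustment), and the criterion was met in each of the 6 fits that left out a library. The median over the tested rows was 0.09, against 0.02 over all rows.

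**Figure D4:**
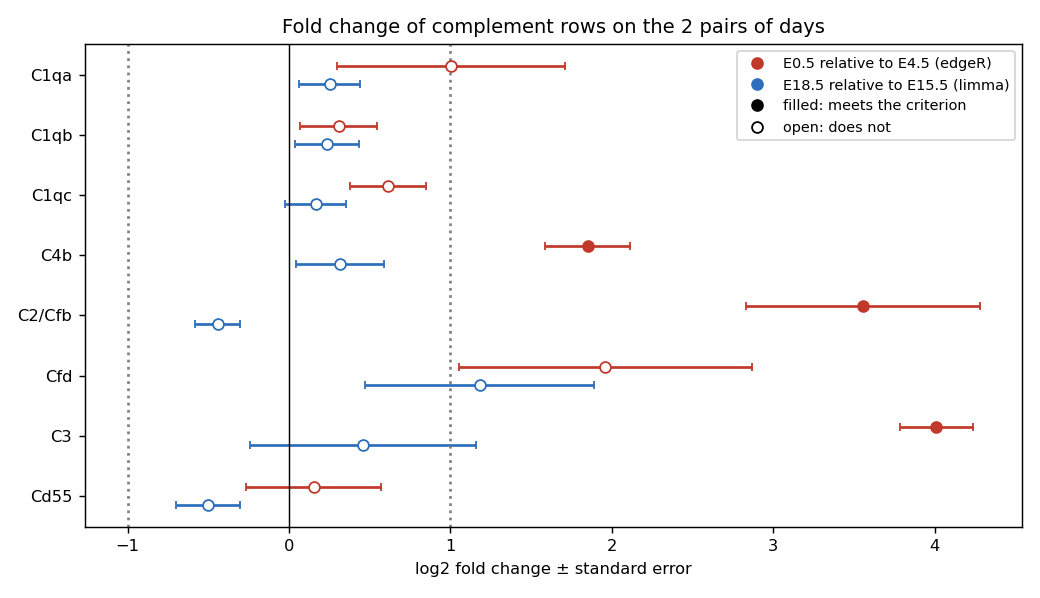
Log2 fold change with its standard error for the 8 complement rows, in red for E0.5 relative to E4.5 (edgeR on counts) and in blue for E18.5 relative to E15.5 (limma on FPKM), with filled points where the criterion is met. C3 lies at 4.01 in red and 0.46 in blue, and the C2 and Cfb row at 3.56 and -0.44.

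Whether the effect of the day differed between the stages was tested as the log2 fold change of E0.5 over E4.5 minus that of E18.5 over E15.5, by limma over the 12 libraries and 21395 pairs of rows. The difference passed the adjusted p for 2 of 7 tested complement rows, where 2.7% of all pairs passed in either direction. The median difference over all pairs was -0.14, and -0.03 with quantile normalization. Of all pairs past the threshold 279 were positive and 298 negative, against 387 and 238 with quantile normalization. The C2 and Cfb row had a difference of 4.43 (SE 0.71, adjusted p = 0.0111, limma with Benjamini-Hochberg adjustment), and it stayed past the threshold whichever library was left out, at 5.24 without E4.5 replicate 3. The fold change of E0.5 over E4.5 that entered this difference was the limma value of 3.99, and not the 3.56 of edgeR. C3 had a difference of 3.55 (SE 0.76, adjusted p = 0.0332, limma with Benjamini-Hochberg adjustment). The C3 value stayed positive, at 3.05 or more, but its adjusted p was over 0.05, at most 0.0854, when any of 10 libraries was left out, all but E4.5 replicate 3 and E15.5 replicate 1. Without the latter it was 4.32.

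The other rows gave no such difference past the threshold. Their values were 1.17 for C1qa, 0.03 for C1qb, 0.41 for C1qc, 1.21 for Cfd and 0.78 for Cd55, with standard errors of 0.86, 0.30, 0.28, 1.28 and 0.50. Without E4.5 replicate 2, C1qa was at 0.21 and Cfd at 0.31, and Cfd was at 2.13 without E4.5 replicate 3 and at 2.05 without E15.5 replicate 3. Cd55 was at 0.29 without E4.5 replicate 3, and C1qb ran from -0.12 to 0.23 with a library left out. The merged C4b row of the implantation table paired best with the C4a row of the labor table and was left out. Paired with the C4b row instead, a choice made after seeing the data, its difference was 1.45 (SE 0.40, adjusted p = 0.083, limma with Benjamini-Hochberg adjustment).

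Genes with patterns most like those of C3 and C1q were sought among 10544 protein-coding row pairs at 1 FPKM or more on average in both tables. Likeness was the root mean square difference of log2(FPKM + 0.1) over the 12 libraries, centred within each table. The row closest to C3 was Cfi, at 0.32, followed by Slc5a9 at 0.39, Tjp3 at 0.45, Fer1l4 at 0.46 and Fut2 at 0.50, where the median row lay at 1.59. Cfi had 0.908, 3.50 and 7.31 FPKM at E15.5 and 6.46, 5.98 and 3.85 FPKM at E18.5, so that, as for C3, E15.5 held both its lowest and its highest library. The rows closest to the mean of the C1q chains were Insig2 at 0.17, Hcfc1r1 at 0.20, 1110008P14Rik at 0.21, Pcnp at 0.22 and Osbpl8 at 0.22, with the median row at 0.52.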

How the data were processed

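The members and gene lists were chosen with earlier results of these data known. The authors sequenced RNA of 12 uteri. Their methods name Ribo-Zero depletion and a HiSeq instrument, while the labels name poly(A) selection and a NovaSeq. The submitters' processing notes list HISAT2 2.0, StringTie 1.3.0 and Bowtie 0.12.2, with the builds mm8 and mm10, and the methods list Cutadapt 1.9, Tophat2 and Ballgown. The extraction protocol in the labels describes the total RNA as that of an adipose type, while the tissue is given as uterus. Annotation release, strand and the way counts were assigned are not given in the sources used here.

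The authors deposited FPKM values for both stages and whole-number counts for E0.5 and E4.5, which track FPKM closely. FPKM of 0.0001 stands for 0 in that table and was set to 0. Positions match GRCm38 (RefSeq).

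Tests took rows that averaged 0.1 FPKM or more, by edgeR 4.0.16 (TMM, quasi-likelihood F-test) on counts for E0.5 against E4.5 and by limma 3.58.1 (trend) on log2(FPKM + 0.1) otherwise, in R 4.3.3, with Benjamini-Hochberg adjustment over all rows of a table. A fold change on that scale understates the change of low rows. The standard error of edgeR is the log2 fold change over the root of F. The tests were also run on simulated data whose rows shared the same spread, which does not cover rows as variable as some here. Between 1.02% and 1.86% of counts lay in rows without a gene name, which stayed in the tests, and leaving them out was an alternative added later. Rows of the tables were paired by shared Ensembl transcripts. Named were all members, other complement genes that met the criterion with a mean of at least 1 FPKM, and the 5 rows nearest in pattern. C4bp, Itgb2, Serpina1a and the other liver and neutrophil markers named, the terminal components and the values of the named epithelial markers were added after they were seen, and the value of 1 listed marker is not reported here. The 12 other lists were 4 of complement genes and 8 of markers. At E0.5 and E4.5 the sum of yolk sac and placenta markers was at most 13.8 FPKM. At E15.5 and E18.5 the neutrophil sum was at most 28.2 FPKM and the ovary sum at most 65.1 FPKM. Alternatives were DESeq2 1.42.0, other scalings, filters and pseudocounts, limma on FPKM, the leaving out of each library and a replicate block. Replicate numbers do not pair the mice, and each library is 1 mouse. The p-values of edgeR and limma set a difference of days against the spread between mice of a day, estimated partly from all rows.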

Additional observations from a re-analysis of the deposited data

Results flagged for a closer look

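The effect of the day differed between the stages for 2 complement rows, by limma on the difference of the log2 fold changes with Benjamini-Hochberg adjustment. The C2 and Cfb row had a difference of 4.43 (adjusted p = 0.0111), and C3 had a difference of 3.55 (adjusted p = 0.0332). The C2 and Cfb row passed in each of the 12 fits that left out a library, whereas C3 missed the threshold in 10 of them, with an adjusted p of up to 0.0854, and with quantile normalization (adjusted p = 0.0605). Both were higher at E0.5 in 3 of 3 mice, and at E18.5 the C2 and Cfb row was lower in 3 of 3 mice while the C3 values overlapped.

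Signal was also present in rows that carry the name C3 but no Ensembl transcript and so entered no count of members. A row without strand just beyond the 3′ end of C3, on chromosome 17 from 57201300 to 57203272, had 425, 395 and 499 counts at E0.5 and 15, 55 and 19 at E4.5. Its mean count at E0.5 was 440, and its share of the library's counts was 14.98-fold that of E4.5. A row on the plus strand within C3, from 57222797 to 57223263, had 37, 58 and 115 counts at E0.5 and none in the 3 libraries of E4.5. Its mean count at E0.5 was 70, at least 23.5-fold higher, as a share of the library, than a floor of 3 counts per E4.5 library. How strand entered the counting is not stated, so reads of this row and of C3 itself cannot be told apart. In the labor table a row named C3 had 15.7, 10.1 and 6.71 FPKM at E18.5 and 0.163, 12.9 and 16.0 FPKM at E15.5, lowest in the library with the least C3.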

How the results depend on the processing

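For E0.5 against E4.5, 3 or 4 of 8 complement rows met the criterion under every alternative and with each library left out, and for E18.5 against E15.5 none did. The row added was Cfd, at 1.95 with DESeq2, at 2.40 and 2.29 with limma on log2(FPKM + 0.1) and log2(FPKM + 1), and at 3.22 without E4.5 replicate 3. The count of rows past the adjusted p ranged from 0 to 3 with a library left out. It was 0 without E0.5 replicate 2, 3 without E4.5 replicate 3 and 1 without any other. With all libraries it was 3 by DESeq2 and by limma on log2(FPKM + 0.1) and log2(FPKM + 1). The row gained was that of C2 and Cfb (adjusted p = 3.07e-06 by DESeq2, 0.0355 and 0.0356 by limma). Over all rows, 730 passed it, against 5816 with DESeq2, 0 without E0.5 replicate 2 and 3629 without E4.5 replicate 3. With the replicate number of the labels as a replicate block, 0 complement rows and 0 of all rows passed the adjusted p and Cfd was at 2.53. Deviations of libraries with the same number correlated between -0.066 and 0.018, and none of the 12 correlated best with its own number, so the numbers do not pair the mice.

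The day effect differed between the stages for 1 or 2 rows with a library left out and for 1 with quantile normalization, where C3 was at 3.20 (adjusted p = 0.0605, limma with Benjamini-Hochberg adjustment). Values without a call that turned in sign were C1qb in the difference between the stages, at -0.01 with quantile normalization and from -0.12 to 0.23 with a library left out, Cd55 for E0.5 against E4.5, from -0.21 to 0.40, and C3 for E18.5 against E15.5, from -0.32 to 0.95. The cause was not tested. Over all rows at E0.5 and E4.5, a filter of 1 FPKM left 4396 rows by the criterion and gave 1126 by the adjusted p. At E15.5 and E18.5, 8 rows passed the adjusted p, between 2 and 13 under the alternatives, with 7 higher and 4 lower by quantile normalization against 6 and 2, and from 0 to 28 with a library left out. For the difference between the stages, 577 pairs passed, and from 187 to 1265 with a library left out. By limma on FPKM, the criterion counted 3066 of all rows with a pseudocount of 1 and 7713 with one of 0.1 at E0.5 and E4.5, where edgeR gave 7284. At E15.5 and E18.5 the counts by limma were 514 and 1870, and a filter of 1 FPKM left 799. With 3 mice per day an exact permutation test cannot go below p = 0.1.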
